A study of Homo sapiens with 12 samples.

Results

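Metallothioneins are small, cysteine-rich proteins that bind zinc, copper and cadmium. The 10 genes described here are 8 metallothioneins of chromosome 16 (MT1A, MT1E, MT1F, MT1G, MT1H, MT1M, MT1X and MT2A), the transcription factor gene MTF1 and the zinc exporter gene SLC30A1, both on chromosome 1. They were chosen by gene name out of 62753 genes in the deposited expression table, and all 10 had a mean of at least 1 FPKM (fragments per kilobase of gene length, scaled to library size) and entered the test. The choice was made from the fall of MT1H in siOGA libraries against siNC libraries, so that comparison is given as a description, with no test for any of the 10 genes. MT1H stood lowest of the 10 there relative to control, at 12.2% of the siNC mean, and SLC30A1 stood nearest to control, at 77.9%.

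The cells were H9 human embryonic stem cells, an established line. Per the labels, every library came from cells in PXGL naive medium (N2B27 base with the inhibitors PD0325901, XAV939 and Go 6983 plus LIF) on mouse embryonic fibroblast feeders. The 12 libraries fall into 4 groups of 3. The siNC group received a control siRNA and is labelled WT, the siOGA group received siRNA to OGA (O-GlcNAcase, the enzyme that removes O-GlcNAc from proteins), and the siP300 group received siRNA to EP300 (a histone acetyltransferase). The libraries labelled siP300+OGA carry the genotype label OGA overexpression, and their titles add P300 siRNA but do not name the medium. H9 is 1 line, and whether libraries of one group are separate cultures is not stated in the labels, so p-values measure only the spread between these samples, which may be technical.

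The targeted genes were checked first. OGA stood at 8.1 ± 0.771 FPKM (SD, n = 3) in siOGA against 40.5 ± 0.431 in siNC, and EP300 at 13.3 ± 0.108 in siP300 against 23.2 ± 0.355. In the libraries labelled siP300+OGA, OGA stood at 43.8 ± 0.741 FPKM against 39.8 ± 1.97 in siP300, which did not pass the test (limma, adjusted p = 0.0636). The gene-level OGA value thus does not itself show the labelled overexpression. EP300 stood at 15.4 ± 0.329 FPKM in siP300+OGA against 13.3 ± 0.108 in siP300, a rise that passed the test. The libraries held 16238225 to 18714572 reads in genes. The sum of naive pluripotency markers differed between groups, but single markers did not all follow it. The summed level of 7 (KLF17, DPPA5, DPPA3, SUSD2, KLF4, TFCP2L1, DNMT3L) was 1250 to 1295 FPKM in siNC, 790.4 to 847 in siOGA, 485.9 to 487.8 in siP300 and 649 to 671 in siP300+OGA. Of these 7, DPPA3 was at 291 ± 18.9, 313 ± 10.5, 74.7 ± 3.34 and 123 ± 0.159 FPKM in that order, so it was not lower in siOGA. DNMT3L was at 283 ± 15.3, 98.1 ± 2.51, 126 ± 7.88 and 110 ± 2.89, and KLF17 at 19 ± 0.345, 2.95 ± 0.34, 6.13 ± 0.239 and 9.8 ± 0.338. In siP300+OGA against siP300, 4 of the 7 were called higher and 1 lower, against 27% and 21.2% of tested genes. In siOGA against siP300, 5 were called higher and 2 lower, against 39.3% and 34.8%. Of the shared pluripotency factor genes, POU5F1 was at 430 ± 23.4, 534 ± 60.2, 278 ± 7.42 and 427 ± 6.13 FPKM, SOX2 at 93.9 ± 2.28, 108 ± 7.41, 68.1 ± 0.712 and 85.7 ± 1.86, and NANOG at 44.2 ± 4.55, 34.3 ± 1.67, 12.5 ± 0.394 and 18.5 ± 1.17, in the same order. The summed level of 3 primed-state markers (ZIC2, SFRP2, FZD7) was 2.88 to 3.71 FPKM in siNC, 55.5 to 60.03 in siOGA, 42.5 to 43.6 in siP300 and 39.8 to 43.3 in siP300+OGA. SFRP2 and FZD7 stood above siNC in all 3 other groups. ZIC2 was at 0.68 ± 0.162, 12.1 ± 0.689, 1.7 ± 0.125 and 0.33 ± 0.0858 FPKM in that order, so it was below siNC in siP300+OGA. The summed level of 6 fibroblast markers was 1.96 to 2.1, 3.41 to 4.05, 17.9 to 19 and 4.42 to 5 FPKM in that order; COL1A1 made up nearly all of the 17.9 to 19 in siP300, at 17.5 ± 0.546, and DCN was at 0 in 3 of the 4 groups. Of 5 markers of liver, gut, kidney or macrophage (ALB, APOA1, VIL1, PTPRC, CD68) none had a mean of 1 FPKM over the 12 libraries, although APOA1 was at 2.32 in siOGA and VIL1 at 2.85 in siP300. Their sum was 0.8 to 0.904, 2.1 to 2.57, 3.13 to 3.21 and 0.935 to 1.01 FPKM in the same group order, with CD68 at 0 in siNC and siOGA and PTPRC at 0 in siNC and siP300+OGA. The part that these shifts have in the metallothionein levels was not tested, and in bulk RNA fewer cells of a type and less RNA per cell cannot be told apart.

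As background, free zinc activates MTF1, a zinc-finger factor that binds short metal response elements in the promoters of metallothionein genes and of SLC30A1. Metallothioneins then bind the metal, and SLC30A1 carries zinc out of the cell across the plasma membrane. Metallothionein genes also respond to glucocorticoids and to oxidative and other stress, and the MT1 genes arose by duplication, so they resemble each other closely.

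To show how dense these elements are, promoters are printed from 250 bases before to 50 after the annotated start (RefSeq, GRCh38.p14; 5 of the 10 genes matched), with every copy of the element's core, TGCACNC or TGCGCNC on either strand, in capitals. No promoter is given for MT1A, MT1E, MT1F, MT1G or MT1M. The promoters of MT1H and MT2A are printed as the most abundant of the matched genes, that of MT1X as a member with another pattern across groups, and that of SLC30A1 as the exporter.
MT2A promoter, chr16:56608334-56608633, plus strand: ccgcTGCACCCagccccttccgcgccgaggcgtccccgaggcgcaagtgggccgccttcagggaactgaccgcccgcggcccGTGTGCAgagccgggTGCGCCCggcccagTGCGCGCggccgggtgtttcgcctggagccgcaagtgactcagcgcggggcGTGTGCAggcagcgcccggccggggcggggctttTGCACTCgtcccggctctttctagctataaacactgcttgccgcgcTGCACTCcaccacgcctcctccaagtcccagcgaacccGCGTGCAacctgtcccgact
MT1H promoter, chr16:56669564-56669863, plus strand: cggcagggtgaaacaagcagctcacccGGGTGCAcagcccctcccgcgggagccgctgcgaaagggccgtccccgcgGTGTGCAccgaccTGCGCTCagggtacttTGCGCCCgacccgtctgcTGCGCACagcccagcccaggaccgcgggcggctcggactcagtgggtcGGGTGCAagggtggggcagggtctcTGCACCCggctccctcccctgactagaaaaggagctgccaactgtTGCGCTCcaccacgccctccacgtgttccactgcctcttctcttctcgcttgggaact
MT1X promoter, chr16:56682220-56682519, plus strand: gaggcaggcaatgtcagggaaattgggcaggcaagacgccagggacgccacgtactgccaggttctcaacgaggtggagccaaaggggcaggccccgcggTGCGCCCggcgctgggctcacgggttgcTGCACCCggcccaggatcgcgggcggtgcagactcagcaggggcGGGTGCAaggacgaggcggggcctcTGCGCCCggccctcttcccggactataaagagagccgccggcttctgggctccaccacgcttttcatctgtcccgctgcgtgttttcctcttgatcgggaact
SLC30A1 promoter, chr1:211579112-211579411, minus strand: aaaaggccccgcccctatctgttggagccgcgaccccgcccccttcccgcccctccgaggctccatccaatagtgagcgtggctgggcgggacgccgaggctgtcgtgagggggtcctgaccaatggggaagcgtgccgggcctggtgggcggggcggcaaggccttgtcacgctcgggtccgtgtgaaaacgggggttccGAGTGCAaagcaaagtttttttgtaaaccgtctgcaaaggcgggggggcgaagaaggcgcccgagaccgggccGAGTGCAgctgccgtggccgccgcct

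The cores numbered 8 in the MT2A promoter, 8 in MT1H, 4 in MT1X, 2 in SLC30A1 and 0 in MTF1, and no 2 of them overlapped. Among 35116 RefSeq promoters of the same 300 bases, 29.6% held at least 1 core, 8.6% at least 2, 0.601% at least 4 and 0.0199% at least 8. The base composition was alike in the 5, with 67% to 72% G or C. A match is only a run of letters, and the absence of one from MTF1 says only that these letters are not in that window.

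**Figure D1:**
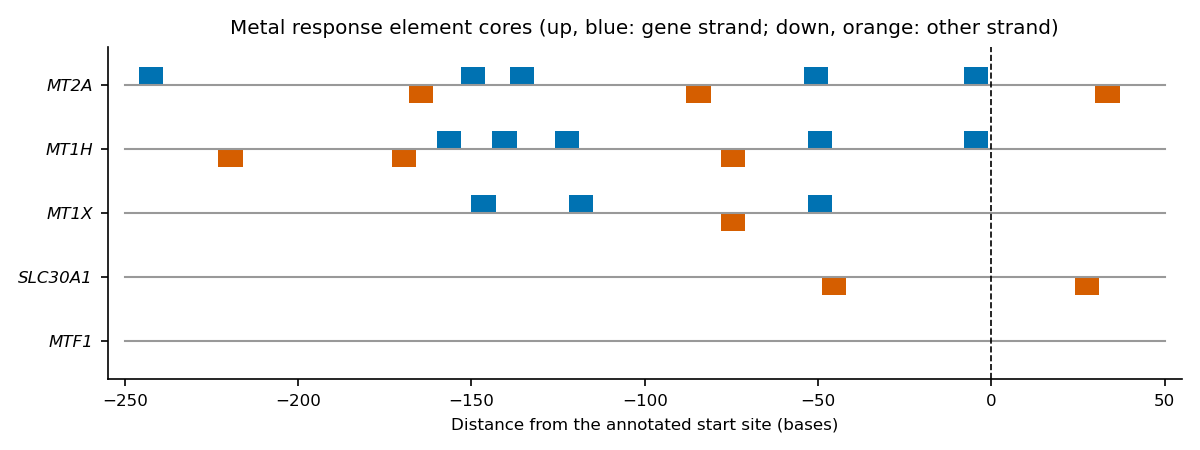
Positions of the core letters TGCACNC or TGCGCNC in the 5 promoters, with distance in bases from the annotated start site on the x axis (dashed line) and 1 row per gene. Blocks above a line lie on the gene's strand and blocks below on the other strand. MT2A and MT1H hold 8 each, MT1X 4, SLC30A1 2 and MTF1 0.

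The coding sequences show the family's defining feature and how alike the copies are. They are printed for MT1H, MT1X and MT2A, the matched genes of the promoters above, from GENCODE 29 transcripts on GRCh38, with cysteine codons in capitals.
MT1H coding sequence: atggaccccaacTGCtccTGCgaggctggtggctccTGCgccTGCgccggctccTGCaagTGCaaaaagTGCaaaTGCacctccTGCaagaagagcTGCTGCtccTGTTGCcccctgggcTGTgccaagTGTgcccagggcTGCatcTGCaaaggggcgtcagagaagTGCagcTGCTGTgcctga
MT1X coding sequence: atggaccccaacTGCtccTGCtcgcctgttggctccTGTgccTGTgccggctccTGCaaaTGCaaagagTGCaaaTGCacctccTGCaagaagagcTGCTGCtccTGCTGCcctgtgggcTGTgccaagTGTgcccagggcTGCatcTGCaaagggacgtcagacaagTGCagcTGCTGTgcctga
MT2A coding sequence: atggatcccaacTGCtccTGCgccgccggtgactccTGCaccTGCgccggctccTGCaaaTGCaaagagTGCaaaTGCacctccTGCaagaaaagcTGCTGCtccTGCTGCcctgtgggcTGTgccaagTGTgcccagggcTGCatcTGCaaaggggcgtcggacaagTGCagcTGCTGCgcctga

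For each gene the transcript with 3 coding exons and the coding length most common in the family, 186 bases, was taken. All 8 then had 20 cysteine codons among 61, or 32.8%. Coding identity was 88.7% to 94.6% (median 91.9%) over 21 pairs of MT1 genes and 89.8% to 95.2% between an MT1 gene and MT2A. Over whole transcripts, however, exact windows of 75 bases were shared with another of the 8 only by MT1G (22 of 332 windows) and MT1X (22 of 376). No label or header says how the authors counted reads that match more than 1 copy, so the split between MT1 copies is uncertain.

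In control cells the family was led by MT1G and MT1H. MT1G, on the minus strand at 56666730 to 56668065 of chromosome 16 (GRCh38), stood at 283, 273 and 391 FPKM in the 3 siNC libraries. MT1H, the next gene at 56669814 to 56671129 on the plus strand, stood at 190, 184 and 268. Both genes were highest in the third siNC library. MT2A followed at 65.1 ± 11.4 FPKM (SD, n = 3), MT1E at 41.5 ± 9.87, MT1X at 21 ± 1.22, MT1F at 17.1 ± 1.46, MT1M at 12.4 ± 1.94 and MT1A at 4.89 ± 1.1. MTF1 (3.92 ± 0.3) and SLC30A1 (4.8 ± 0.23) stood near the lowest metallothionein. These levels are per kilobase of the listed gene length, which for some genes runs past the main transcript (751 bases listed against 406 for MT1G, 1727 against 450 for MT1X), so the order between genes depends on those lengths.

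**Figure D2:**
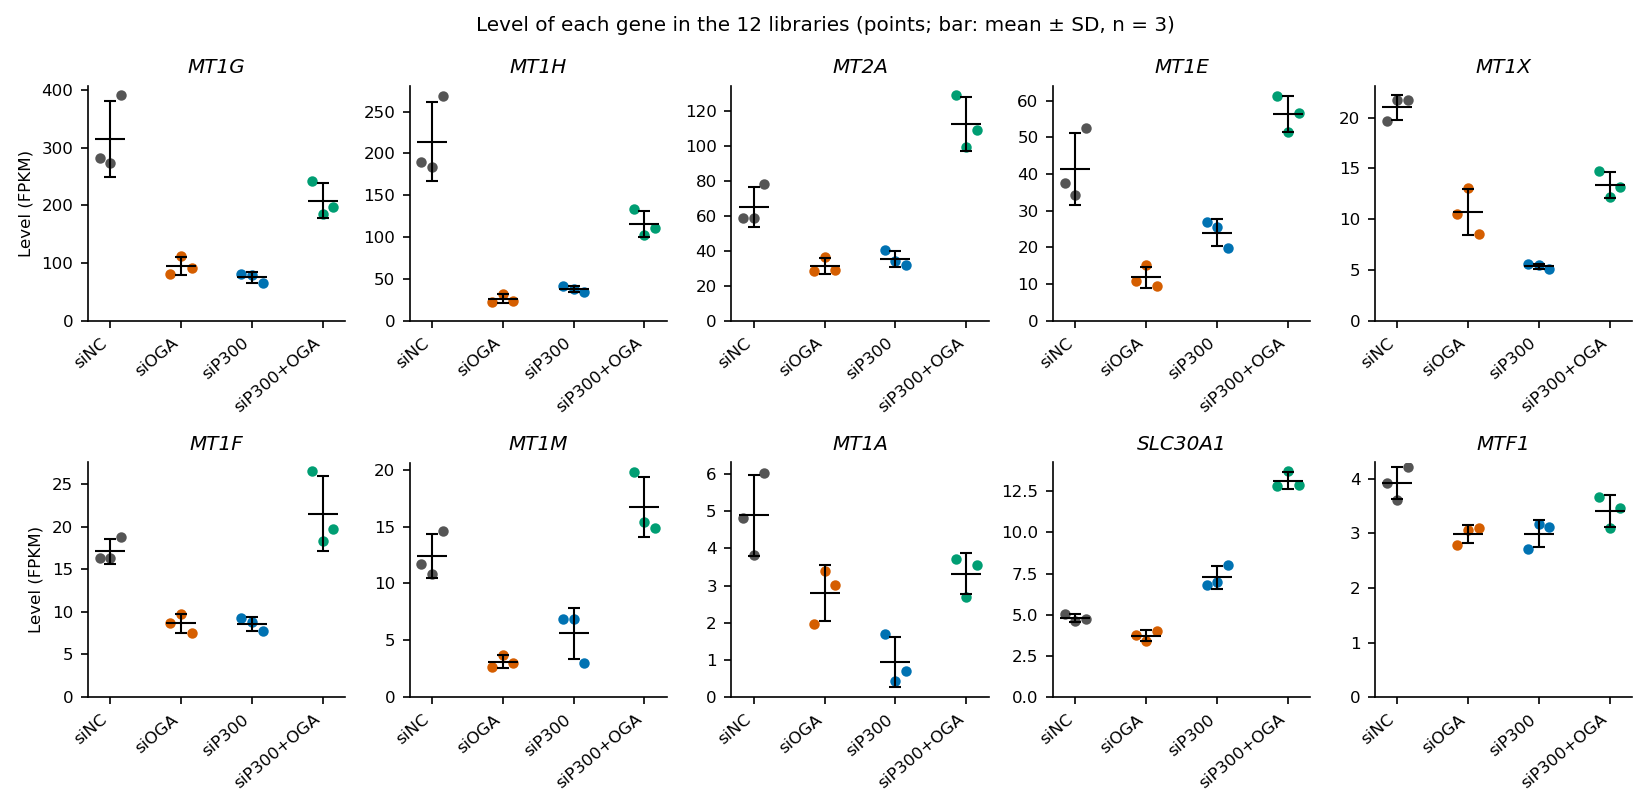
Level in FPKM (y axis, from 0, a separate scale per gene) of the 10 genes in the 12 libraries. Points are libraries, and bars are the group mean ± SD with n = 3. The 8 metallothioneins are lower in siOGA and siP300 than in siNC and higher again in siP300+OGA, SLC30A1 is highest in siP300+OGA, and MTF1 spans 2.71 to 4.22 FPKM.

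The siOGA libraries showed the first reduction, given here as a description. MT1H was at 22.2, 32.4 and 23.6 FPKM, far from its siNC range, and MT1G was at 80.7, 112 and 91.7. Relative to siNC the siOGA means were 12.2% for MT1H, 25.3% for MT1M, 28.4% for MT1E, 30% for MT1G, 48.2% for MT2A, 50.5% for MT1F, 50.9% for MT1X and 57.2% for MT1A. The remaining share thus differed from gene to gene within the family. MTF1 was at 76.1% and SLC30A1 at 77.9%. On the log2(FPKM + 1) scale, on which differences of low genes are understated, the differences ran from −2.99 for MT1H to −0.29 for SLC30A1. The siOGA libraries of all 10 genes lay below their siNC libraries. Over all 13166 tested genes 68.6% did not overlap in either direction, 32.9% were called lower and 34% higher, and nothing is read from the members' count because the genes were chosen on this comparison.

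The 8 metallothioneins were lower, and SLC30A1 higher, in siP300 than in siNC. This comparison, siP300 with siNC, shares its siNC libraries with the one used to choose the genes. MT1G stood at 81.5, 79 and 64.8 FPKM in siP300, MT1H at 41.7, 38.1 and 34.3, and MT1X at 5.55, 5.44 and 5.04 against 19.6, 21.7 and 21.8 in siNC. For each of the 10 genes the siP300 and siNC libraries did not overlap, as for 70.9% of tested genes. On the log2(FPKM + 1) scale the largest falls were MT1H by 2.44 and MT1G by 2.04 (SE 0.16, limma adjusted p = 7.16e-07). MT1H is given with no test, since its siNC values were used to choose the genes. MT1X fell by 1.80 (SE 0.12, adjusted p = 1.57e-07) and MT1A by 1.64 (SE 0.23, adjusted p = 8.28e-05), the latter on 3 to 41 reads per library. As shares of the siNC mean, MT1A was at 19.2%, between MT1H at 17.8% and MT1G at 23.8%. The others fell less: MT1M by 1.08, MT1F by 0.91, MT2A by 0.86 and MT1E by 0.75 (adjusted p from 8.19e-05 to 0.00399).

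The non-metallothionein members moved in different directions in siP300. SLC30A1 stood at 6.78, 6.98 and 8.04 FPKM against 5.06, 4.62 and 4.72, a rise of 0.51 (SE 0.07, limma adjusted p = 3.91e-05), so the exporter rose while the metal-binding proteins' transcripts fell. MTF1 fell by 0.30 (SE 0.07, adjusted p = 0.00271), from 3.92 ± 0.3 to 3 ± 0.247 FPKM. That call was lost when the median difference of the other tested genes in each 20 Mb region was subtracted (−0.09, adjusted p = 0.322). In all 9 members, MT1H among them, were called lower and 1 higher, against 35.7% and 30.2% of tested genes. The siNC values of MT1H were used to choose the genes, so its call is not read as a result. The median difference of the 8 metallothioneins, MT1H included, was −1.36, against −0.04 for all tested genes.

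The libraries labelled siP300+OGA stood above siP300 for all 8 metallothioneins. This comparison uses neither siOGA nor siNC libraries for its means. MT1G stood at 242, 185 and 197 FPKM, 2.77 times the siP300 mean. MT1H stood at 133, 103 and 110, 3.03 times that mean, and MT2A at 129, 99 and 109 against 40.4, 34 and 31.5, 3.18 times. The siP300+OGA and siP300 libraries did not overlap for any of the 8, as for 59.6% of tested genes. MT2A, the most widely expressed family member in human tissues, had the largest rise on the log2(FPKM + 1) scale, by 1.64 (SE 0.14, limma adjusted p = 5.2e-06). As a ratio of means MT1A rose more, to 3.54 times its siP300 mean of 0.939 FPKM. MT1H rose by 1.57, MT1M by 1.48, MT1G by 1.46, MT1F and MT1E by 1.21, MT1A by 1.20 and MT1X by 1.18 (adjusted p from 1.39e-05 to 0.00146).

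SLC30A1 rose further in the same libraries, to 12.8, 13.7 and 12.9 FPKM, 1.81 times its siP300 mean (log2 difference 0.78, SE 0.07, limma adjusted p = 4.16e-06). MTF1 was at 3.66, 3.1 and 3.46 FPKM against 2.71, 3.17 and 3.11 in siP300. Its groups overlapped and the difference of 0.14 (SE 0.07) did not pass (adjusted p = 0.118), although it did with quantile scaling (0.20, adjusted p = 0.0342). Members called higher numbered 9 of 10, against 27% of tested genes, and members called lower numbered 0, against 21.2%. The metallothionein median was 1.33, against 0.03 for all tested genes.

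**Figure D3:**
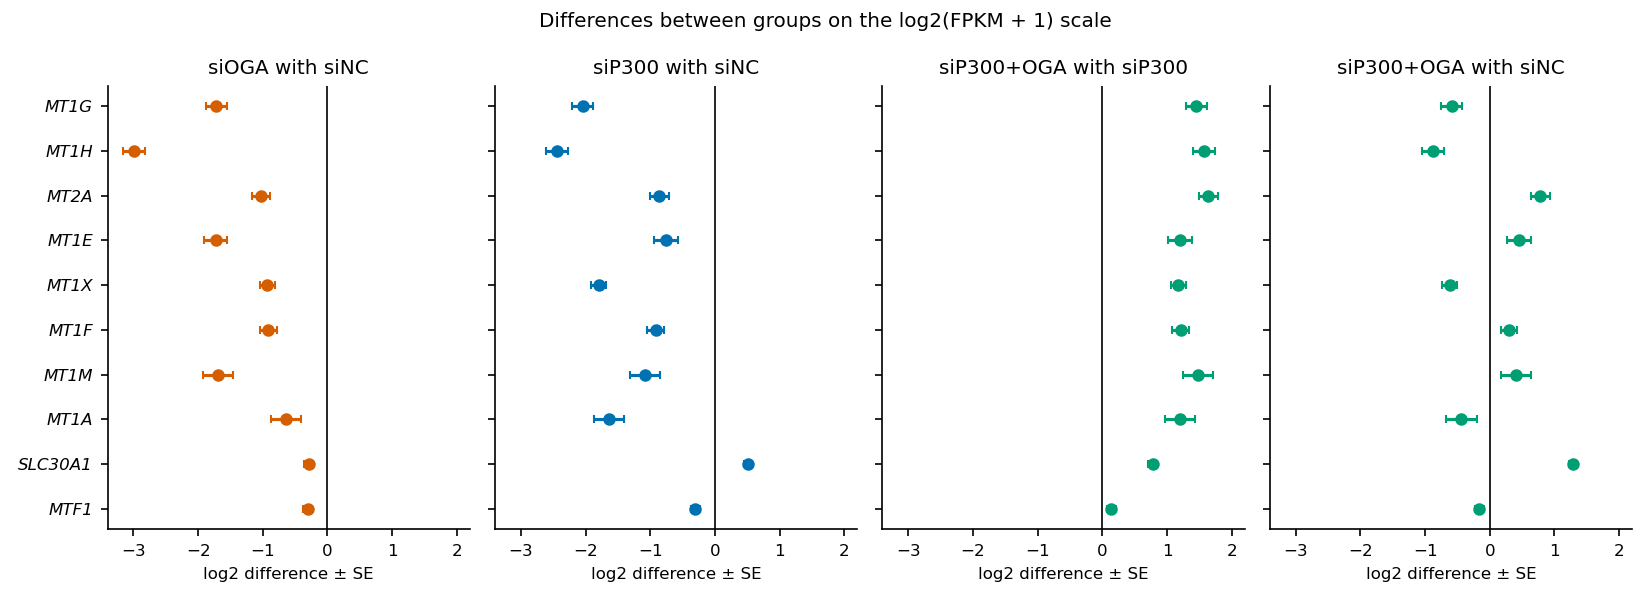
Differences between group means on the log2(FPKM + 1) scale (x axis) for the 10 genes (rows), with SE bars, in 4 comparisons of the first-named group minus the second. The 8 metallothioneins lie left of 0 in siOGA with siNC and in siP300 with siNC, right of 0 in siP300+OGA with siP300, and on both sides in siP300+OGA with siNC. SLC30A1 lies at 0.51, 0.78 and 1.29 in the 3 comparisons that involve siP300 or siP300+OGA. The SE bars of siOGA with siNC, on which the genes were chosen, and of MT1H against siNC are not read as a test.

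Against siNC, the siP300+OGA libraries gave members above and below control. MT2A was above control at 173% of the siNC mean (log2 difference 0.78, SE 0.14, limma adjusted p = 0.000663), and SLC30A1 at 274% (1.29, SE 0.07, adjusted p = 3.3e-08). MT1X was below control at 63.5% (−0.62, adjusted p = 0.000836) and MT1G at 66% (−0.59, adjusted p = 0.00839). MT1H stood at 53.9% (−0.87), with no test given, since its siNC values were used to choose the genes. MT1E (136% of control, adjusted p = 0.051), MT1M (135%, 0.162), MT1F (126%, 0.0678), MT1A (68%, 0.128) and MTF1 (86.9%, 0.0687) did not pass, which does not show that they equalled control. Thus 2 of 10 members were called higher and 3 lower, MT1H among the latter. These shares were not above the 30.8% and 30.2% of all tested genes called higher and lower. The members' counts rest on the settings: with only the groups compared in the model they were 4 and 4, and with voom on recovered reads 5 and 4. Single libraries also decided calls here. MT1E passed without the third siNC library (0.64, adjusted p = 0.01), the second (0.0277) or the third siOGA library (0.0424) or the third siP300 library (0.0453), the latter 3 through the shared spread. MT1M passed without the third siP300 library (adjusted p = 0.0225), MT1F without the second siP300+OGA library (0.0273), and MTF1 without the second siNC (0.0402) or first siP300+OGA library (0.0467).

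Set directly against each other, siOGA and siP300 libraries differed in both directions within the family. The siOGA libraries here are those on which the genes were chosen, through MT1H, so MT1H is given with no test. MT1X was higher in siOGA, at 10.5, 13.1 and 8.54 FPKM against 5.55, 5.44 and 5.04 in siP300 (log2 difference 0.87, SE 0.12, limma adjusted p = 4.54e-05), and MT1A was higher as well (1.00, SE 0.23, adjusted p = 0.00237). MT1E was lower in siOGA, at 10.8, 15.1 and 9.45 against 26.8, 25.5 and 19.8 (−0.98, SE 0.18, adjusted p = 0.000554). SLC30A1 was lower by 0.80 (SE 0.07, adjusted p = 7.19e-07), and MT1H was at 26.1 ± 5.53 FPKM in siOGA against 38 ± 3.72 in siP300. For these 5 genes the groups did not overlap, as for 75% of tested genes. MT1M was lower by 0.62 (adjusted p = 0.0341) with overlapping libraries, and the call was lost under 9 of 24 alternatives. These include leaving out either of 2 siOGA libraries or either of 2 siP300 libraries (adjusted p 0.0754 to 0.131). The rest were no expression minimum, quantile scaling, only the groups compared, sample weights and voom on recovered reads (0.0506 to 0.0859). MT1G (0.33, adjusted p = 0.09), MT2A (−0.17, 0.31), MT1F (0.00, 0.994) and MTF1 (−0.00, 0.971) did not pass. MT1G did without the first siOGA library (adjusted p = 0.0457) or the third siNC library (0.0479), and with voom on recovered reads (0.0435). MT2A did with quantile scaling (adjusted p = 0.0355). In all 2 of 10 members were called higher, against 39.3% of tested genes, and 4 of 10 lower, against 34.8%. The share called higher was thus below that of all tested genes, and the share called lower was not far above it. The 4 include MT1H.

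The levels can also be ordered by group within each gene. SLC30A1 ran siP300+OGA, siP300, siNC, siOGA with no overlap between neighbours, and MT1H ran siNC, siP300+OGA, siP300, siOGA with none. MT2A, MT1E, MT1F and MT1M were highest in siP300+OGA, but for MT1E and MT1F those libraries overlapped with siNC. MT1G, MT1X and MT1A were highest in siNC. MTF1 overlapped between every pair of neighbours in its order, a narrow range from 2.98 to 3.92 FPKM in the group means.

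Summing the family does not depend on how reads were split between its copies, though reads that were dropped or counted more than once would still change it. The table lists 20 MT1 and MT2A genes, pseudogenes included, of which 6 were at 0 throughout, and the 8 members held at least 99.785% of the family's reads in every library. The sum was 586 ± 108 RPM in siNC (summed family reads scaled to the reads in genes of each library, range 519 to 711), 160 ± 27.6 in siOGA, 180 ± 21.7 in siP300 and 485 ± 66.7 in siP300+OGA. That is 27.3%, 30.7% and 82.7% of control for the 3 other groups. The sum carries no test, and its values in siNC and siP300+OGA overlap. Its siOGA value against siNC includes the fall of MT1H by which the genes were chosen.

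The make-up of that pool also differed between groups. As shares of reads, which also depend on gene length, MT1G and MT1H together made up 68.4% ± 1.4 in siNC, 53.5% ± 2.45 in siOGA, 49.4% ± 0.594 in siP300 and 50.5% ± 0.462 in siP300+OGA. MT2A took 10.4% ± 0.221, 17.1% ± 0.369, 19% ± 1.01 and 21.6% ± 0.242. The siP300+OGA libraries thus overlapped siNC in the size of the pool but had MT1G and MT1H shares nearer to those of siP300. MT1H held 11.2% ± 0.511 of the pool in siOGA against 27% ± 0.745 in siNC, while MT1G held 42.3% ± 2.27 against 41.4% ± 0.662. The ratio of MT1G to MT1H in FPKM was 1.48 ± 0.0178 in siNC, 3.66 ± 0.218 in siOGA, 1.97 ± 0.0929 in siP300 and 1.8 ± 0.02 in siP300+OGA. The ratio of MT2A to MT1X was 3.09 ± 0.457 and 2.97 ± 0.391 in siNC and siOGA but 6.6 ± 0.595 and 8.39 ± 0.334 in the groups with P300 siRNA. These shares and ratios carry no test. Those of siOGA against siNC that involve MT1H rest on the fall by which the genes were chosen, so they are a description only.

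**Figure D4:**
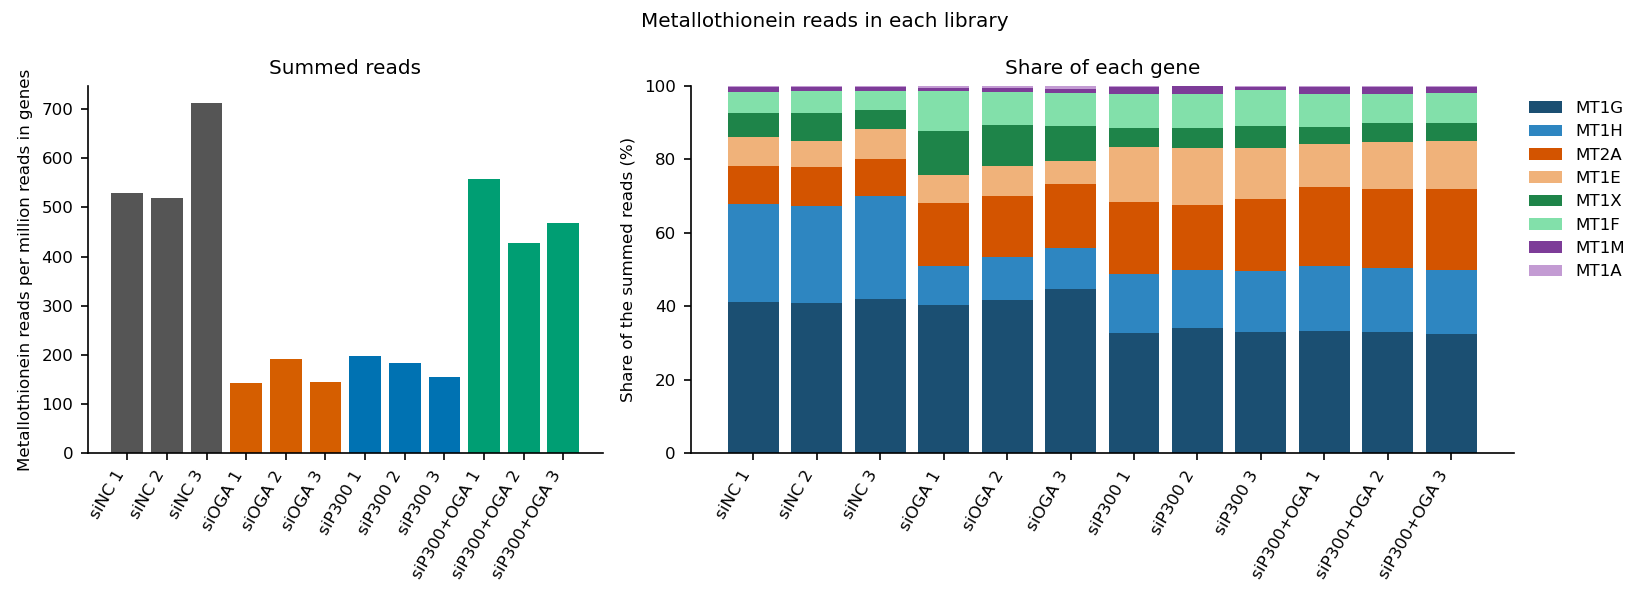
Left, summed MT1 and MT2A reads as RPM, scaled to the reads in genes (y axis), in each of the 12 libraries (bars). Right, the share of those reads in percent (y axis) held by each of the 8 metallothioneins. The sum is 519 to 711 in siNC and 428.7 to 558.7 in siP300+OGA, but MT1G and MT1H hold 68.4% of it in siNC and 50.5% in siP300+OGA.

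Within groups the metallothioneins varied more than most genes of like level. Their within-group SD was 0.16 to 0.33 on the log2 scale, at the 93.3 to 98.7 percentile among the 1000 tested genes nearest in level, where the median over all tested genes was 0.08. MTF1 and SLC30A1, each with an SD of 0.08, were at the 44.5 and 60.3 percentile. The metallothioneins also deviated together. All 8 were above their group mean in the third siNC, the second siOGA, the first siP300 and the first siP300+OGA library. The correlation of deviations from the group mean over the 12 libraries was 0.26 to 0.975 for the 28 pairs of metallothioneins (median 0.745), −0.80 to −0.36 for a metallothionein with SLC30A1 and 0.12 to 0.53 with MTF1. SLC30A1 deviated opposite in sign to the mean metallothionein in 10 of the 12 libraries. These correlations are descriptions over libraries that share group means, scaling and depth.

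**Figure D5:**
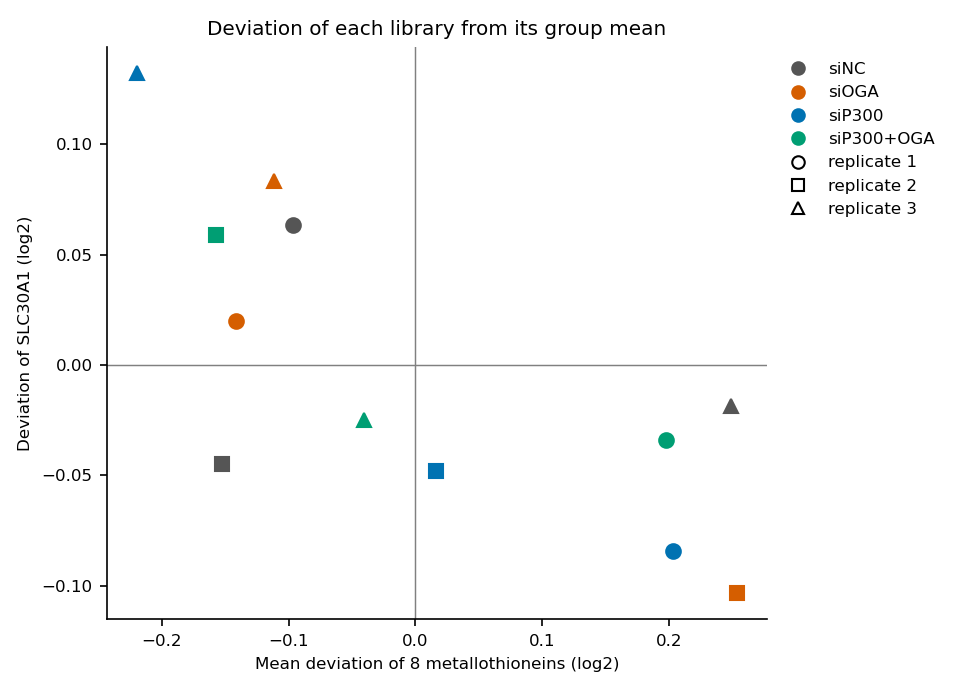
Deviation of each library from its group mean on the log2(FPKM + 1) scale, for the mean of the 8 metallothioneins (x axis) and SLC30A1 (y axis). Each point is 1 of 12 libraries, coloured by group and shaped by replicate number. In 10 of the 12 the signs are opposite.

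Other zinc genes were followed to place these values. Here and below, genes counted as rising or falling are those called higher or lower. Of all tested genes 30.2% were called higher and 35.7% lower in siP300 against siNC. The shares were 27% and 21.2% in siP300+OGA against siP300, 30.8% and 30.2% in siP300+OGA against siNC, and 34% and 32.9% in siOGA against siNC. Of 10 other SLC30 exporter-family genes, including TMEM163, 5 were tested: in siP300 against siNC 4 fell and 0 rose, led by SLC30A2 (−0.92), which loads zinc into vesicles, SLC30A5 (−0.61) and SLC30A6 (−0.49), both of the early secretory pathway. SLC30A2 was at 2.38 ± 0.48 FPKM in siNC, 0.363 ± 0.075 in siOGA, 0.774 ± 0.084 in siP300 and 2.3 ± 0.143 in siP300+OGA. In siP300+OGA against siP300, 3 of these 5 rose and 0 fell, SLC30A2 by 0.89 (SLC30A1 is not in this count). Against siNC, siP300+OGA gave 0 higher and 3 lower, led by SLC30A5 (−0.58), and siOGA 0 higher and 4 lower.

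The zinc importers of the SLC39 family split. Beside their counts and those of the regulators, 30.2% of all tested genes were called higher and 35.7% lower in siP300 against siNC. Of 9 tested of 14, 4 rose and 4 fell in siP300 against siNC, with SLC39A6 higher by 1.07, from 5 ± 0.202 to 11.6 ± 1.22 FPKM, and SLC39A10 lower (−0.60). In siP300+OGA against siP300, 1 rose and 2 fell, SLC39A6 among the latter (−0.66). Against siNC, 3 rose and 3 fell in siP300+OGA and 2 rose and 2 fell in siOGA, where SLC39A9 was higher by 0.64. The 6 regulators set beside MTF1 are a mixed list and not only zinc-response genes. ZNF658, at a mean of 0.399 FPKM, was not tested. Of the 5 tested, 2 rose and 1 fell in siP300 against siNC. ZBTB7B rose by 1.28 and KEAP1, which holds NRF2 in check, by 0.92, and MTF2 was lower (−0.41). In siP300+OGA against siP300, 0 rose and 2 fell, ZBTB7B (−0.88) and KEAP1 (−0.16). Against siNC, siP300+OGA gave 2 higher and 1 lower, led by KEAP1 (0.76), and siOGA gave the same counts, with KEAP1 lower (−0.49) and MTF2 higher (0.38).

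Copper genes were followed because metallothioneins also bind copper. Their counts stand beside 30.2% of all tested genes called higher and 35.7% lower in siP300 against siNC. Of 7 tested of 11, 0 rose and 4 fell in siP300 against siNC, led by the copper importer SLC31A1 (−0.42) and CCS (−0.41), which delivers copper to SOD1. In siP300+OGA against siP300, 2 rose and 0 fell, SCO1 and CCS by 0.42 each. Against siNC, 1 rose and 2 fell in siP300+OGA, and 2 rose and 4 fell in siOGA, led by CCS (−0.66).

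Genes of stresses that can induce metallothioneins were followed too. Of 11 heat shock and proteotoxic response genes 7 rose and 0 fell in siP300 against siNC, HSPA1A by 1.40 and HSPB1 by 1.26. In siP300+OGA 10 rose and 0 fell against siNC, and 7 rose and 1 fell against siP300, HSPA1A by 0.39 among the former and BAG3 (−0.55) the latter. In siOGA against siNC 3 rose and 5 fell. Of 10 tested NRF2 targets 5 rose and 4 fell in siP300 against siNC, NQO1 by 2.50, from 7.49 ± 0.142 to 47.1 ± 0.81 FPKM, and HMOX1 by 0.91. NQO1 was at 43 ± 0.748 in siP300+OGA, where 3 targets were higher and 4 lower than in siNC, and 2 higher and 6 lower than in siP300, and in siOGA 4 rose and 4 fell. Of 8 tested glucocorticoid-response genes 2 rose and 5 fell in siP300, with DUSP1 higher by 1.39. In siP300+OGA 1 rose and 6 fell against siNC and 1 rose and 5 fell against siP300, and in siOGA 7 rose and 1 fell, NR3C1, the receptor gene, by 0.54 among the former. These counts are to be read against the shares of all tested genes given above.

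Other family genes were nearly silent. Of 12 rows for MT1B, MT3, MT4, TESMIN and MT1 pseudogenes, TESMIN alone was tested, at 5.77 ± 0.342 FPKM in siNC, and it is a testis-expressed gene outside the classical family. MT3, the brain form, had a mean of at most 0.0692 FPKM in any group, and MT1B, MT4, MT1L, MT1DP and MT1IP were at 0 in every library.

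Genes around the cluster were compared with it. Their counts stand beside 30.2% of all tested genes called higher and 35.7% lower in siP300 against siNC. The 8 metallothioneins lie between 56608584 and 56684196 of chromosome 16, and 71 other genes lie within 1 Mb, of which 16 were tested. In siP300 against siNC 5 of the 16 rose and 7 fell, with a median of −0.07 and the largest difference in CCDC102A (1.04), followed by GNAO1 (0.72) and RSPRY1 (−0.58). In siP300+OGA against siP300 6 rose and 3 fell (median 0.01), led by HERPUD1 (−0.54), and against siNC 6 rose and 4 fell (median 0.02). In siOGA against siNC 8 rose and 5 fell (median 0.13), led by COQ9 (−0.56). For the 62 tested genes of the surrounding 20 Mb region, members left out, the medians were −0.07, 0.01, 0.02 and 0.03 in the same order.

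The genes whose profile over the 12 libraries was most like the mean metallothionein profile were found by Pearson's r on the log2 scale, as a description. They were TOP3A (r = 0.976), a DNA topoisomerase, MRPS7 (0.968), a mitochondrial ribosomal protein, VENTX (0.966), a homeobox factor, PDHA1 (0.966), a pyruvate dehydrogenase subunit, DPH2 (0.962), HK2 (0.961), a hexokinase, HOXB2 (0.959) and HPDL (0.956). VENTX stood at 29.4 ± 0.61 FPKM in siNC, 10.7 ± 1.59 in siOGA, 10.9 ± 1.01 in siP300 and 23.4 ± 0.435 in siP300+OGA. HOXB2 stood at 22.1 ± 0.77, 7.57 ± 0.688, 8.68 ± 0.807 and 23.9 ± 0.434. All of these have the shape of low siOGA and siP300 with high siNC and siP300+OGA, and 4.72% of tested genes had an r above 0.8 while 4.5% were below −0.8. MTF1 had an r of 0.81 and SLC30A1 of 0.39.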

How the data were processed

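Poly(A) RNA of 12 libraries was sequenced as dUTP-stranded paired reads with molecular identifiers, per the labels. Per the submitters' processing notes the build was GRCh38 and the tools were HISAT2 2.0.4, StringTie 1.3.4d, cutadapt 1.9, UMI-tools, edgeR and DESeq2; their roles are not stated. The authors deposited FPKM per gene, scaled per listed gene length and library size. Every deposited FPKM value was a whole multiple of 1 read (100% within 0.01), and 1 read per kilobase was worth 0.0518 to 0.0647 FPKM; no label or header says whether single reads or fragments were counted. The implied library size was 0.935 to 1.06 times the summed reads.

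Groups, taken from the sample titles, entered 1 limma model (version 3.58.1, R 4.3.3) of log2(FPKM + 1) over the 12 libraries, with a trend in the spread and 8 residual degrees of freedom. Genes under a mean of 1 FPKM (49587) were set aside, and 13166 were tested. Calls are two-sided at a Benjamini-Hochberg adjusted p under 0.05 over all tested genes, in each of 5 comparisons. An exact permutation test of 3 against 3 cannot go below p = 0.1, so none was used. The fit was tested on simulated data. The alternatives were pseudocounts of 0.1 and 5, no minimum and a mean of at least 5 FPKM, 2 other scalings, no trend, sample weights, only the groups compared, a replicate block, each library left out, voom on the recovered reads and regional medians removed.

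The members and gene lists were chosen with earlier results of these data known. All 10 members are named, and, of any other pathway list or the cluster's neighbours, at most 3 genes in a comparison, from those with the largest called differences. Cell type markers and the other metallothioneins, whose levels are given without a test of the single gene, are named as lists, and SLC30A2, SLC39A6, NQO1, KEAP1 and the iron genes are followed across groups. ZNF658 is named as not tested. Comparisons share libraries: siNC enters 3, siP300 3, siOGA 2 and siP300+OGA 2. Same-numbered libraries did not deviate together (r from −0.06 to 0.13 over 18 pairs), so they were not treated as pairs. No per-sample column was set aside.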

Additional observations from a re-analysis of the deposited data

How the results depend on the processing

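No called difference of a member changed direction under the alternatives run. In siOGA with siP300, MT1F (main difference 0.00) and MTF1 (−0.00), neither called, changed sign under 6 and 5 of them. Of 1190 differences of single members under alternatives, over all 5 comparisons, 1148 kept their side of the threshold, 16 lost it and 26 gained it. These totals, like the statement on direction, include siOGA with siNC, on which the members were chosen. There MT1A gave 5 of the 16 losses. Members called in siP300+OGA with siNC numbered 5, but 8 with only the groups compared and 9 with voom on recovered reads, where MT1E, MT1F, MT1M and MTF1 were added; the cause was not tested. The other counts stayed within 1.5 times: 8 to 10 for siP300 with siNC and for siP300+OGA with siP300, the 8 with a mean of at least 5 FPKM, where 8 members were tested, and 5 to 7 for siOGA with siP300. The counts of members called in siOGA with siNC are not given, since the members were chosen on that comparison. Leaving out 1 library at a time gave 10 calls in every case for siP300 against siNC, 5 to 7 for siP300+OGA against siNC, and 9 in every case for siP300+OGA and 5 to 7 for siOGA against siP300. With the replicate block the calls were 10 for siP300 against siNC, 5 for siP300+OGA against siNC, and 9 for siP300+OGA and 6 for siOGA against siP300, each as without the block. MT1A, on 3 to 41 reads, and MT1M, on 21 to 172, are the members whose precision depth limits most.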

Other observations

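Iron-handling genes, which neighbour zinc and copper handling in the cell, were compared in the same way. Of 7 tested of 10, 4 rose and 3 fell in siP300 against siNC by limma, with FTL, the light chain of the iron store ferritin, higher by 2.32 (adjusted p = 2.8e-12), from 426 ± 18 to 2131 ± 42.7 FPKM (SD, n = 3). FTL was at 892 ± 16.2 FPKM in siOGA and 965 ± 14.7 in siP300+OGA, above siNC in each and below siP300. FTH1, the ferritin heavy chain, differed less, by 0.37 in siP300. HEPH, a copper-dependent iron oxidase, rose by 1.23 in siP300, from 0.349 ± 0.00715 to 2.17 ± 0.174 FPKM, and fell in siP300+OGA against siP300, to 0.121 ± 0.0571 FPKM. It also rose in siOGA against siNC, by 1.24, to 2.2 ± 0.124 FPKM. In siP300+OGA 3 iron genes rose and 4 fell against siNC and 2 rose and 2 fell against siP300, and in siOGA 5 rose and 2 fell against siNC, where 34% and 32.9% of all tested genes were called higher and lower.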
